A study of Mus musculus with 125 samples.

Results

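The vascular basement membrane was followed here through 10 genes: Col4a1 and Col4a2 (collagen IV), Lama4, Lama5, Lamb1 and Lamc1 (laminin chains), Nid1 and Nid2 (nidogens), Hspg2 (perlecan) and Sparc (a matrix glycoprotein). They were chosen by name, as components of the endothelial basement membrane, out of 27998 genes in the single-cell tables and 21887 protein-coding genes in the peak counts. The choice was made with earlier results of these data known, so the members are not a list independent of the counts below. Each was read in 2 ways: as UMIs (counted molecules) in brain endothelial cells of 5 ages, and as peaks of open chromatin that overlapped the gene or lay within 50 kb of it. All 10 had UMIs in every single-cell library and peaks in the ATAC-seq lists.

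The basement membrane is a thin sheet of matrix under every endothelium. Laminin trimers, built of an alpha, a beta and a gamma chain, assemble at the cell surface, a collagen IV network is laid beside them, and nidogens and perlecan link both. Brain capillaries are wrapped almost completely by it, and it separates and joins endothelium, pericytes and astrocyte endfeet. Cells bind it through integrins, dystroglycan and Bcam, and matrix metalloproteases and their inhibitors (the Timp genes) govern its turnover.

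The study is of mouse tissue. For ATAC-seq, which marks open chromatin, 37 endothelial and 29 input libraries (labelled only as input) were made from brain, retina, heart, kidney, liver and lung at P6 and in the adult of 2 months, and from brain, heart and trunk at E12. Animals of all these groups, input included, had received tamoxifen (0.015 mg per kg) to switch on a GFP reporter in vessels; the driver of the reporter is not named in the labels, and their protocol text ends before the step that separates nuclei. Samples without GFP in their vessels were dropped by the submitters. That text puts the collection of the P6 group at P7. For single-cell RNA-seq, 5 libraries of cells selected with antibody to CD31 (Pecam1) were made, from whole brain at E9.5, E12.5 and E16.5 and from cortex at P8 and in the adult, with no genotype or tamoxifen given for them. How many animals were pooled is not given, and each age is 1 library, so the ages could not be tested against each other. Dissection (whole brain or cortex) and dissociation differed between the embryonic and the postnatal libraries and cannot be told apart from age there. The deposited matrix of the library labelled E16.5 bears another embryonic day in its name, and the label was followed. That matrix was read with the gene table of the other 4 libraries, which is identical in all 4 and has the same 27998 rows. Its gene sums correlated with those of the others at Spearman's rho of 0.924 to 0.960 over all rows, a description across genes.

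Endothelial cells were the barcodes with at least 200 genes, at most 10% mitochondrial UMIs and at least 3 of 6 endothelial markers (Cdh5, Pecam1, Egfl7, Esam, Tie1, Kdr). From the youngest library to the oldest they numbered 5644, 6347, 3786, 4778 and 3154, and series of 5 values below keep that order (E9.5, E12.5, E16.5, P8, adult). Median depths were 7158.5, 10469, 9017, 8468 and 4896 UMIs. All 6 markers were present at every age. Markers of mural cells (pericytes and smooth muscle, which share this basement membrane) were found in the same barcodes: summed over 12 genes they stood at 167, 116, 266, 891 and 2061 CPM (UMIs scaled to the total of the library's endothelial barcodes), led by Tagln at E9.5 and by Rgs5 later, with 11 of the 12 present at E9.5 and all 12 later, and were lowest at E12.5 and highest in the adult. The barcodes with 3 or more mural markers made up 1.03, 4.84, 4.46, 11.4 and 11.7%. Fibroblast markers summed to between 22.5 and 70.2 CPM. Erythroid markers, the globins among them, summed over 9 genes to 3248, 15031, 11124, 16092 and 8377 CPM, led by Hbb-y at E9.5 and E12.5 and by Hbb-bs later. Microglia and macrophage markers summed to 72.8, 289, 34.3, 9.58 and 67.4 CPM over 10 genes, and neural markers to 43.3, 130, 137, 79.4 and 322 CPM over 10. Their part in the members' courses by age was not tested. Libraries shared between 0 and 50 barcodes pairwise, and leaving the shared ones out kept at least 98.7% of endothelial barcodes. The ATAC-seq lists held 19464 to 144197 peaks from 10.14 to 59.08 M tags. Of the endothelial lists, the 2 of adult retina had the fewest peaks in the members' windows (counted as below), 21 and 16. Adult retina input had 17 and 15. P6 retina endothelium had 23, 26 and 27. Adult lung endothelium (25 and 36, input 39 and 26) and E12 heart endothelium (29 to 36, input 32) also did not lie clear of their input.

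Regions at the start sites of Nid1 and Sparc were among those called more often in endothelial lists (below), so the 250 bases upstream of these start sites are shown. They come from a set of RefSeq promoters (GRCm38.p6), and the set used had entries for 7 of the 10 members and none for Lama4, Lamc1 and Nid2. Nid1 reads chr13:13437352-13437601 on the plus strand and Sparc chr11:55420081-55420330 on the minus strand, both 5′ to 3′. Capitals mark matches to any of 4 motifs searched on both strands.
Nid1: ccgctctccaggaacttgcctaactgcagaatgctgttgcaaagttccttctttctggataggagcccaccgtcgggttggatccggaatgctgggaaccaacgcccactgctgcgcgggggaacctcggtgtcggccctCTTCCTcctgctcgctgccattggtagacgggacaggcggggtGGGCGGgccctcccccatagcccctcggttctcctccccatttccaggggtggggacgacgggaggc
Sparc: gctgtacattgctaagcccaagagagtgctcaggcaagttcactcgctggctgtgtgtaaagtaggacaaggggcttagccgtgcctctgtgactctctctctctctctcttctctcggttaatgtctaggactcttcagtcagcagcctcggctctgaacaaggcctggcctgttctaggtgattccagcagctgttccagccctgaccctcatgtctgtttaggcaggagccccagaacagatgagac
In Nid1 the ETS core AGGAAG occurred on the opposite strand (read as CTTCCT, 110 to 105 bases upstream) and the SP1 box GGGCGG at 67 to 62 bases upstream. The Sparc stretch held neither, nor the AP-1 site TGANTCA nor the TATA box TATAAA. Of 32851 promoters of the same length, 29.5% held AGGAAG, 32.7% GGGCGG, 6.75% TGANTCA and 12.4% TATAAA. GC content was 64.4% for Nid1 and 54% for Sparc.

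The members' UMIs were highest at P8 and lower in the adult for most genes. Summed over the 10 members, brain endothelium had 2679, 4397, 5717, 6743 and 3521 CPM. UMIs here count the 3′ ends of molecules, and Sparc gave 41.6, 64.7, 66.3, 57.5 and 73.3% of these sums. From P8 to adult, 7 members were at least 2-fold lower (10.4% of 8826 genes were) and 1 was at least 2-fold higher (13.6% of genes). The median log2 fold of the members was -1.56, beside 0.07 for all genes with at least 10 CPM at either age. These folds compare 2 libraries and have no replicate check, and the intervals given below (exact Poisson, 95%) cover counting error only.

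**Figure D1:**
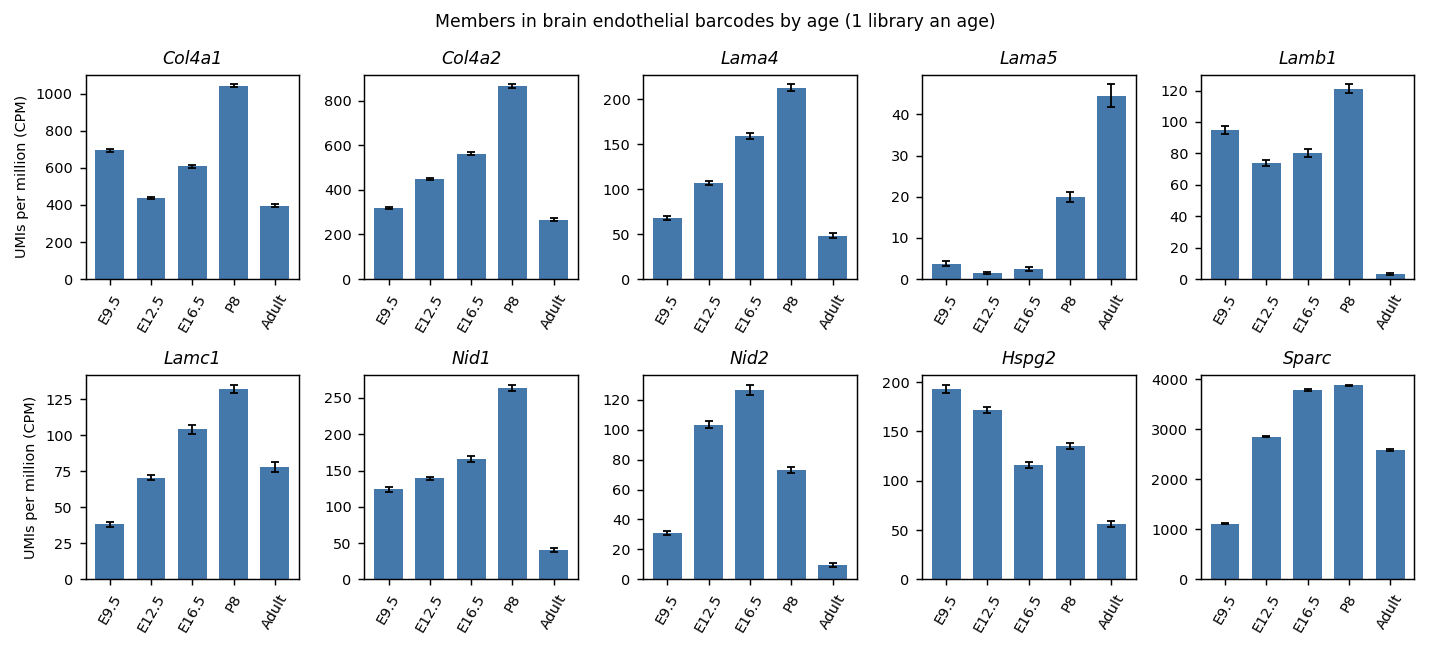
CPM in brain endothelial barcodes for each of the 10 members (vertical axes, CPM, each from 0) at 5 ages (horizontal axes), 1 library an age; bars are levels and whiskers exact Poisson 95% intervals, which cover counting error only. Of the 10 panels, 7 have their highest bar at P8, Lama5 has it in the adult (44.5 CPM), Nid2 at E16.5 (127 CPM) and Hspg2 at E9.5 (193 CPM).

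Col4a1 and Col4a2 encode the alpha chains that make up the collagen IV network of vessels, and lie head to head on chromosome 8 (Col4a1 at chr8:11198423-11312889 on the minus strand, Col4a2 at chr8:11312805-11449287 on the plus strand). Col4a1 stood at 695, 437, 609, 1044 and 395 CPM, the adult value with an interval of 387 to 403. Col4a2 stood at 318, 449, 563, 866 and 265 CPM. Both were highest at P8 and lowest in the adult, with log2 folds from P8 to adult of -1.40 and -1.71. They did not move together early: Col4a1 was lower at E12.5 than at E9.5, and Col4a2 was higher. UMIs of Col4a1 per UMI of Col4a2 were 2.18, 0.973, 1.08, 1.20 and 1.49. Col4a1 was seen in 90.5, 90.0, 92.7, 98.0 and 81.1% of endothelial barcodes. In blood and microglia barcodes that held no endothelial, mural or fibroblast marker it was seen in 25.4, 11.1, 11.5, 13.3 and 4.44% of 598, 398, 26, 45 and 45 barcodes, whose median depths were 1478, 6667.5, 5218.5, 861 and 1118 UMIs. After thinning to 2000 UMIs, the endothelial shares were 67.6, 51.5, 61.6, 84.0 and 53.1%, in which E12.5 and the adult stand in the other order than by CPM. Endothelial barcodes with fewer UMIs, 272, 0, 0, 96 and 172 of them, were left out of the thinned shares.

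The laminin chains separated into 3 courses. Lama4 (chr10:38965515-39110188), an alpha chain of endothelial laminins, stood at 67.9, 107, 159, 213 and 47.9 CPM from E9.5 to adult. Lama5 (chr2:180176373-180225904), the other endothelial alpha chain, stood at 3.72, 1.46, 2.45, 19.9 and 44.5 CPM. Lama5 was the member that was at least 2-fold higher in the adult than at P8 (log2 1.16), where Lama4 was lower (log2 -2.15). The Lama4 UMIs per Lama5 UMI went from 18.3, 73.2 and 64.9 in the embryo to 10.7 at P8 and 1.08 in the adult. Lama5 was seen in 2.66, 1.65 and 2.48% of embryonic endothelial barcodes, beside 1.00% of the blood and microglia barcodes at E9.5, 0 of 398 at E12.5 (interval up to 0.923%) and 0 of 26 at E16.5 (up to 13.2%). It was seen in 19.7% of endothelial barcodes at P8 and 23.5% in the adult. Blood and microglia barcodes held it in 2.22% at P8 and in 0 of 45 in the adult (up to 7.87%).

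Lamb1 (chr12:31265146-31329644), a beta chain that pairs with both, had the lowest adult level relative to P8 of any member. It stood at 94.8, 73.6, 80.3, 121 and 3.05 CPM, a log2 fold of -5.31 from P8 to adult. In the adult, 71 UMIs lay in 1.40% of endothelial barcodes, and 11 of them in a single barcode. Lamb1 was found in 0 of the 45 adult blood and microglia barcodes (exact binomial interval up to 7.87%), so its adult level was not distinguishable from background, and its fold and the adult Lamb2 ratio below rest on those UMIs. At the earlier ages the endothelial shares were 45.0, 51.7, 47.9 and 53.6%, beside 8.03, 1.76, 0 and 4.44% of blood and microglia barcodes. Those barcodes were shallower at each age, and in them Lamb1 stood at 34.4, 2.51, 0 and 49.3 CPM. In adult barcodes with no mural marker it was 0.261 CPM, and in adult mural-like barcodes, defined below, 43.8 CPM. Lamb2, the other vascular beta chain, from the list of further basement membrane genes, stood at 5.64, 14.8, 32.5, 75.9 and 192 CPM. Its UMIs per Lamb1 UMI were 0.0595 at E9.5 and 62.9 in the adult. Lamc1 (chr1:153218922-153332786), the gamma chain of the same trimers, stood at 38.1, 70.5, 104, 132 and 78.0 CPM and changed by less than 2-fold from P8 to adult (log2 -0.76).

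Nid1 (chr13:13437602-13512275) and Nid2 (chr14:19751257-19811787), which bridge laminin and collagen IV, were both lower in the adult. Nid1 stood at 124, 139, 166, 264 and 40.3 CPM, with a log2 fold of -2.71 from P8 to adult. Nid2 peaked earlier, at 30.9, 103, 127, 72.8 and 9.42 CPM, with a log2 fold of -2.95. In the adult Nid2 was seen in 6.40% of endothelial barcodes, beside 4.44% of 45 blood and microglia barcodes (interval 0.543 to 15.1%), so its adult level was not distinguishable from background. Nid1 UMIs per Nid2 UMI were 4.02, 1.35, 1.31, 3.63 and 4.28. The adult ratio and the Nid2 fold rest on 219 adult Nid2 UMIs at that level.

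Hspg2 (chr4:137468751-137570630), the heparan sulfate proteoglycan perlecan, was the member highest at E9.5. It stood at 193, 171, 116, 135 and 55.7 CPM, with a log2 fold of -1.27 from P8 to adult. Sparc (chr11:55394159-55420080), which binds collagen IV and affects its deposition, stood at 1114, 2846, 3791, 3875 and 2583 CPM. Its log2 fold from P8 to adult was -0.59, under the 2-fold mark. Sparc UMIs were also found in 37.3, 61.3, 57.7, 55.6 and 35.6% of the blood and microglia barcodes, the highest such shares of any member, against 94.8 to 99.9% of endothelial barcodes. No adjacent Poisson intervals overlapped when the 5 ages of any member were ordered by level.

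Between the earlier ages fewer members passed 2-fold. From E9.5 to E12.5, 2 of the 9 members with 10 CPM at either age were at least 2-fold higher (19.2% of 8267 genes), Nid2 (log2 1.74) and Sparc (log2 1.35), and 0 lower (8.98% of genes). From E12.5 to E16.5, 0 of 9 passed in either direction (8.13% of 8325 genes higher, 6.81% lower). From E16.5 to P8, Lama5 was higher (log2 3.03; 11.1% of 8467 genes) and 0 were lower (7.67% of genes). That fold rests on 104 UMIs at E16.5, a level not distinguishable from background. From E9.5 to P8, 7 were higher (28.0% of 8752 genes) and 0 lower (16.1% of genes), Hspg2 standing at log2 -0.52, Lamb1 at 0.35 and Col4a1 at 0.59. Of these 7, Nid1 was just under 2-fold (log2 0.93) when mitochondrial and ribosomal protein genes were left out of the total. Lama5, also among the 7, had an E9.5 level not distinguishable from background.
With at most 5% mitochondrial UMIs, which kept 26.2% of P8 and 47.5% of adult endothelial barcodes, Lama5 was just under 2-fold higher in the adult (log2 0.99), so 0 members were higher (11.9% of 8770 genes). From E16.5 to P8 the counts then became 2 higher (13.6% of 8515 genes), with Col4a1 (log2 1.01) added, and 1 lower (7.90%), Nid2, just past 2-fold. In barcodes with no mural marker, 8 members were at least 2-fold lower in the adult than at P8 (10.9% of 8637 genes), the added one being Lamc1 (log2 -1.05).

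Several receptors for this matrix had more UMIs in the adult. Of 11 receptor genes at 10 CPM or more at either age, 6 were at least 2-fold higher in the adult than at P8 and 0 lower, among them Itga3 (3.36 at P8 and 25.6 CPM in the adult), Bcam, a laminin receptor that binds the Lama5 chain (35.4 and 235 CPM), Sdc3 (33.5 and 92.8 CPM) and Itga6, a laminin integrin (89.6 and 225 CPM). Of 12 further basement membrane genes, 4 were higher and 3 lower. Tinagl1, a matrix glycoprotein, went from 27.3 to 561 CPM and Ntn4, a laminin-related netrin, from 1.77 to 35.3 CPM. Pxdn, the peroxidase that crosslinks collagen IV, went from 32.6 to 1.63 CPM, and Lamc3 from 5.18 to 29.7 CPM.
Of 11 genes for collagen folding and crosslinking, 1 was higher and 4 lower. P4ha2, a prolyl hydroxylase subunit, went from 1.17 to 70.9 CPM. Serpinh1, the collagen chaperone, went from 482 to 163 CPM, Fkbp10 from 80.4 to 6.11 CPM and Plod1 from 144 to 52.4 CPM. Of 12 matrix proteases and inhibitors, 2 were higher and 6 lower. Timp3, the inhibitor that is held in the matrix, went from 120 to 1933 CPM. Timp1 went from 29.6 to 1.08 CPM, Mmp14 from 28.3 to 3.53 CPM and Mmp15 from 35.7 to 4.56 CPM. Median log2 folds were 1.09 for the receptors, -0.22, -0.39 and -0.99 for the other 3 lists. The summed mural markers moved from 891 to 2061 CPM between these libraries, and their part in the folds of these lists was not tested.

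**Figure D2:**
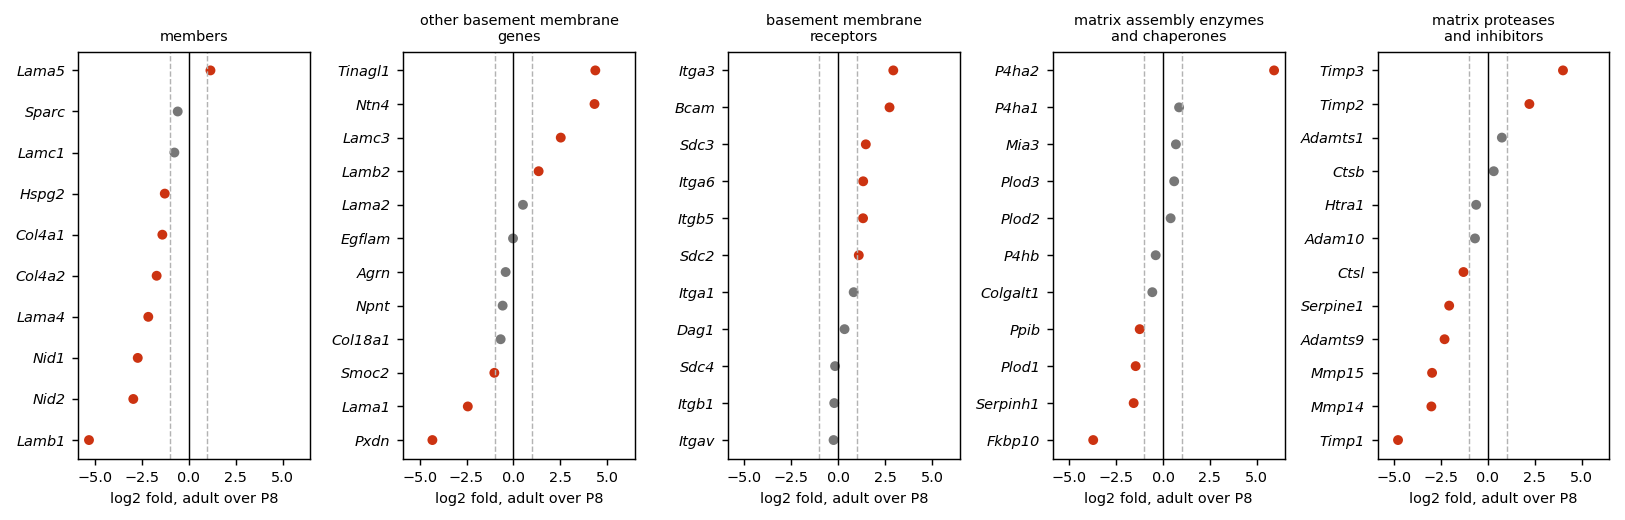
Log2 fold of CPM, adult over P8 (horizontal axes), for every gene of 5 lists with at least 10 CPM at either age; each point is a gene, red where the change is at least 2-fold, with dashed lines at 2-fold and a solid line at no change. Of the 10 members, 7 lie left of the lower dashed line and Lama5 right of the upper one, while 6 of 11 receptors lie right of the upper line and 0 left of the lower.

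The genes whose course over the 5 ages was most like the members' mean (Pearson's r of log2(CPM + 10), among 4829 genes with at least 50 CPM at any age) were Sema6d (0.999), Alg5 (0.999), Arpc3 (0.985), Ttr (0.984) and Kdr (0.981), which is also one of the markers that chose the barcodes. Sema6d stood at 67.8, 104, 144, 264 and 31.5 CPM. Among the members themselves, each of which is part of that mean, Lama4 (0.990) and Col4a2 (0.984) were nearest to it and Lama5 farthest (-0.35). These are descriptions over 5 libraries that differ in dissection and depth.

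Within the libraries, tip-like cells were compared with other endothelium. Tip cells lead sprouts, and were taken as endothelial barcodes with at least 2 of 8 tip markers, none of them a member, against barcodes with none, summed per library. In each embryonic library and at P8, 9 members had a higher CPM in tip-like barcodes, and Lama5 did so in 3 of all 5 libraries. Lama4 had 97.2, 130, 201, 269 and 68.1 CPM in tip-like barcodes from E9.5 to adult, and 56.8, 71.1, 89.1, 124.9 and 46.2 CPM in the others. Tip-like barcodes were higher in all 5 libraries. Nid1 had 159, 173, 213, 311 and 56.2 CPM against 109, 85.8, 88.6, 178 and 36.1 CPM, again higher in 5 of 5. Over all 5 libraries (edgeR), 0 members passed an adjusted p of 0.05 in either direction. Of 12399 genes tested 1 was higher (0.00807%) and 0 were lower (0%). Log2 differences were 0.90 ± 0.12 (SE) for Lama4 (adjusted p = 0.0754), 0.85 ± 0.13 for Nid1 (0.0819), 0.61 ± 0.094 for Lamc1 (0.0853), 0.85 ± 0.20 for Lamb1 (0.184), 0.80 ± 0.25 for Nid2 (0.296) and 0.42 ± 0.098 for Hspg2 (0.177). At an unadjusted p of 0.05, 6 members were higher and 0 lower, beside 735 and 741 genes.
The count changed with the adult library and with other choices. The adult tip-like class held 53 barcodes with a median of 22542 UMIs, and 69.8% of them had 3 or more mural markers. Without the adult library 6 members rose (2.53% of 12585 genes did): Lama4 (log2 1.00, adjusted p = 0.00753), Nid2 (0.98, 0.00775), Nid1 (0.92, 0.0173), Lamc1 (0.65, 0.0239), Hspg2 (0.50, 0.0347) and Col4a1 (0.45, 0.0432). With only barcodes free of mural markers, which leaves the adult out because 9 of its tip-like barcodes remain, 7 rose, Sparc (log2 0.29) with them (3.15% of 11991 genes). On all 5 libraries, DESeq2 called 5 higher (2.40% of genes), and edgeR called 2 with no filter on low counts (0.358%) and 2 with 1 more marker required (0.525%). In the edgeR test of all 5 libraries, 0 genes of the other 4 lists passed.

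Arterial-like barcodes had more Col4a2 than venous-like ones. With at least 2 of 8 markers of either kind and none of the other, Col4a2 stood at 492, 498, 677, 1254 and 287 CPM in arterial-like barcodes from E9.5 to adult and at 244, 319, 364, 645 and 280 CPM in venous-like ones, higher in 5 of 5 libraries. Its log2 difference was 0.66 ± 0.15 (edgeR, adjusted p = 0.0342), and it was the only member that passed (3.25% of 10616 genes were higher and 1.40% lower). Col4a1 (0.54 ± 0.15, adjusted p = 0.0707), Lama5 (1.22 ± 0.38, 0.1) and Sparc (0.56 ± 0.18, 0.101) did not pass. The call was lost without E9.5 (log2 0.57, adjusted p = 0.066), E12.5 (0.67, 0.122), E16.5 (0.63, 0.14) or P8 (0.60, 0.124), and Col4a1 passed too without the adult. Of the 12 further basement membrane genes tested, Agrn (0.96), Lamb2 (0.82) and Tinagl1 (0.68) rose on the arterial side. Of 13 receptors, Itga3 (-1.54) and Itga6 (-0.69) were lower there, and of 14 proteases and inhibitors Htra1 (2.62) and Ctsb (0.62) were higher.

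Mural-like barcodes, with at least 3 of 12 mural markers and at most 1 endothelial marker, differed from endothelial barcodes without mural markers in 3 members. Lamc1 stood at 71.6, 120, 208, 383 and 247 CPM in mural-like barcodes from E9.5 to adult and at 37.9, 67.7, 101, 129 and 62.6 CPM in endothelial ones, higher in 5 of 5 libraries (log2 1.16 ± 0.24, edgeR adjusted p = 0.0120). Hspg2 stood at 45.6, 37.0, 36.6, 79.1 and 60.9 CPM against 186, 167, 114, 136 and 54.0 CPM, lower in 4 of 5 libraries (log2 -1.34 ± 0.37, adjusted p = 0.0447). Sparc was lower in 4 of 5 libraries (log2 -0.80 ± 0.18, adjusted p = 0.0168). So 1 member rose (5.50% of 11114 genes did) and 2 fell (8.15% of genes). Mural-like barcodes numbered 23, 143, 17, 98 and 108. The Hspg2 call was lost without E9.5 (log2 -1.14, adjusted p = 0.108), E12.5 (-1.11, 0.144), E16.5 (-1.28, 0.126) or P8 (-1.51, 0.0834), the Sparc call without E16.5 (-0.73, 0.0778) and the Lamc1 call without P8 (1.06, 0.0664).
Lamb1 (log2 1.34 ± 0.78, adjusted p = 0.320) and Nid1 (0.98 ± 0.45, 0.199) did not pass, though Nid1 did without E9.5 (1.34, 0.0483). In the adult they stood at 43.8 and 207 CPM in mural-like barcodes, against 0.261 and 27.1 CPM in endothelial ones. Of 15 receptors tested, 8 rose in mural-like barcodes, led by Itga7 (log2 9.58), Sdc2 (6.80), Itgb5 (5.88) and Ddr1 (4.16), and 1 fell. Of 13 further basement membrane genes Lamc3 (5.70), Col4a5 (4.77) and Egflam (2.19) rose. Of 13 assembly genes 4 rose, among them Lox (3.59), and 1 fell, and of 14 proteases and inhibitors Timp2 (2.91) rose and Adam10 (-1.90) fell.

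In open chromatin, 7 of the 10 members had more peaks nearby in endothelial than in input libraries and 0 had fewer. Each library entered with its 15000 most significant peaks, so that lists of different length could be compared, and the counts were tested with limma on log2(number + 1) within organ and age. The members' windows together held 16 to 53 peaks (median 36) per endothelial library and 15 to 39 (median 25) per input library. Col4a2 had 1 to 15 peaks (median 7) in the 37 endothelial libraries and 1 to 9 (median 3) in the 29 input libraries. Its log2 difference was 1.12 ± 0.12 (SE, adjusted p = 1.07e-10). Col4a1 had 0 to 11 (median 5) and 0 to 8 (median 2), with 1.00 ± 0.15 (4.23e-07). The windows of these genes overlap, so the same peaks counted for both. The ranges overlapped for every member.
Lama4, with 1 to 7 peaks (median 2) against 1 to 5 (median 1), differed by 0.60 ± 0.087 (adjusted p = 2.76e-07). Hspg2 (0.49 ± 0.12, 6.52e-04), Sparc (0.34 ± 0.087, 0.0019), Nid2 (0.28 ± 0.065, 5.60e-04) and Lama5 (0.22 ± 0.064, 0.00667) also rose. Of all 19689 genes tested, 16.9% were higher and 18.1% lower. Lamc1 (0.28 ± 0.11, adjusted p = 0.0535), Nid1 (0.23 ± 0.095, 0.0505) and Lamb1 (-0.19 ± 0.098, 0.119) did not pass. Lamb1 passed as lower without E12 brain input replicate 2 (-0.24, adjusted p = 0.0473), and leaving out any 1 of 19 libraries let Lamc1 pass and any 1 of 21 let Nid1 pass. By covered length Lama5 did not pass (0.090, adjusted p = 0.129) and Lamc1 did (0.33, 0.00695). The counts changed with the ranking of peaks. With every deposited peak counted, Hspg2 was the 1 member higher (3.17% of 21431 genes were) and Lamb1 the 1 lower (log2 -0.59, adjusted p = 0.00366; 47.3% of genes), and with the 15000 peaks of greatest fold enrichment 2 members were higher (14.7% of genes).

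**Figure D3:**
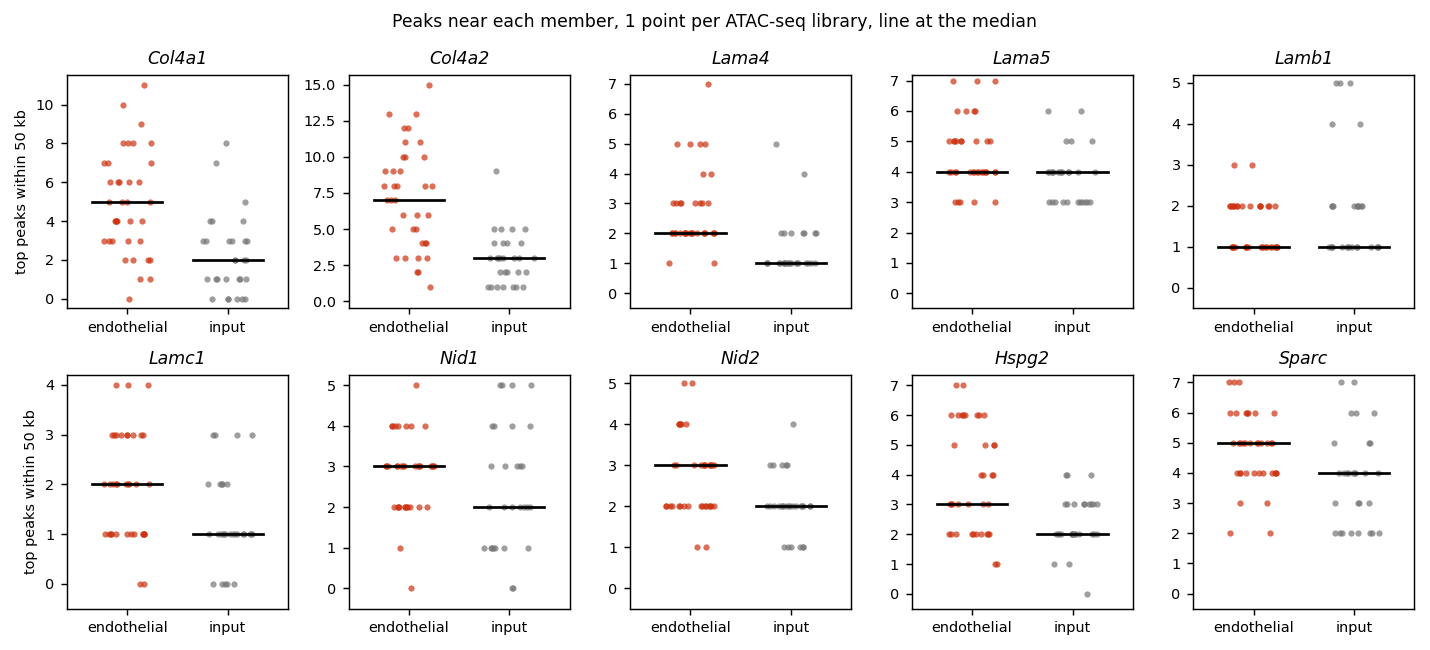
Number of top peaks that overlap each member or lie within 50 kb of it (vertical axes); each point is an ATAC-seq library, red for the 37 endothelial and grey for the 29 input libraries, with a black line at the median. Col4a1 (medians 5 and 2) and Col4a2 (medians 7 and 3) show the widest gaps, and the point clouds overlap in all 10 panels.

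The names of the read files in the list headers fall into 4 kinds, which follow organs. Within the kind of 12 endothelial and 12 input libraries (kidney, liver, trunk and a few other inputs), Col4a1 (log2 1.35), Col4a2 (1.45), Lama4 (0.98), Lama5 (0.41), Nid2 (0.34), Hspg2 (1.01) and Sparc (0.60) were higher and Lamb1 (-0.54, adjusted p = 0.044) was lower. Within the kind that holds retina and lung (11 and 8 libraries), Hspg2 stood at -0.17 and Sparc at 0.077, and the smallest adjusted p was that of Col4a1 (1.10, adjusted p = 0.0725). Within the heart kind (8 and 4 libraries) Col4a1 stood at -0.15 and Nid2 (0.54, adjusted p = 0.0467) passed. Within the fourth (6 and 5 libraries, brain) Col4a2 (1.89, adjusted p = 7.87e-04) passed. A fit with the kind as a term called 8 members higher, the 7 above and Lamc1 (16.1% of 19689 genes were higher and 18.5% lower). Shares over all genes were not taken within single kinds.
Of 17 receptor genes 8 had more peaks in endothelial libraries and 3 fewer, with Itga6 at 0.62 and Itga1 at 0.48 against Itga7 at -0.73 and Ddr1 at -0.43. Of 16 proteases and inhibitors 8 were higher and 1 lower, with Adamts9 at 0.99. Of 16 assembly genes 3 were higher and 3 lower. Of 22 further basement membrane genes 2 were higher, Tinagl1 (0.92) and Pxdn (0.79), and 6 lower, with Lamb3, an epithelial laminin chain, at -1.02 and Col4a4, a kidney collagen IV chain, at -0.84.

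Single open regions gave places to these differences. Merging the top peaks of all libraries left 104572 regions, 188 of them in the members' windows, and each was tested for presence with an exact permutation test within organ and age. In endothelial lists 24 member regions were present more often (5.28% of all regions were) and 6 less often (1.82% of all). The region with the smallest adjusted p, chr8:11339779-11341548, lay 27.9 kb inside Col4a2 and was present in 32 of 37 endothelial and 2 of 29 input lists (exact permutation test, adjusted p = 3.28e-07). It was missing from both endothelial lists of adult retina and from 3 of the 4 of E12 heart. A region 15.2 kb inside Col4a1 (chr8:11297287-11298058) was present in 27 and 1 lists, and one 10.3 kb inside Col4a2 (chr8:11322612-11323525) in 23 and 0. The start sites that both genes share carried a top peak in 8 endothelial and 1 input list within the merged region there, which did not pass (exact test, adjusted p = 0.12). Some peak of the full lists lay within 1 kb of these start sites in 37 of 37 endothelial and 25 of 29 input libraries.
The input lists had other regions on the same stretch. Beyond the far end of Col4a1, chr8:11171497-11171957 and chr8:11173227-11174234 were each present in 0 endothelial and 9 input lists. The first did not pass among peaks with −log10 q of at least 10 (-17.2 percentage points, exact test, adjusted p = 0.149) and the second with at least 0.5 of it covered (-13.8 points, 0.301).

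**Figure D4:**
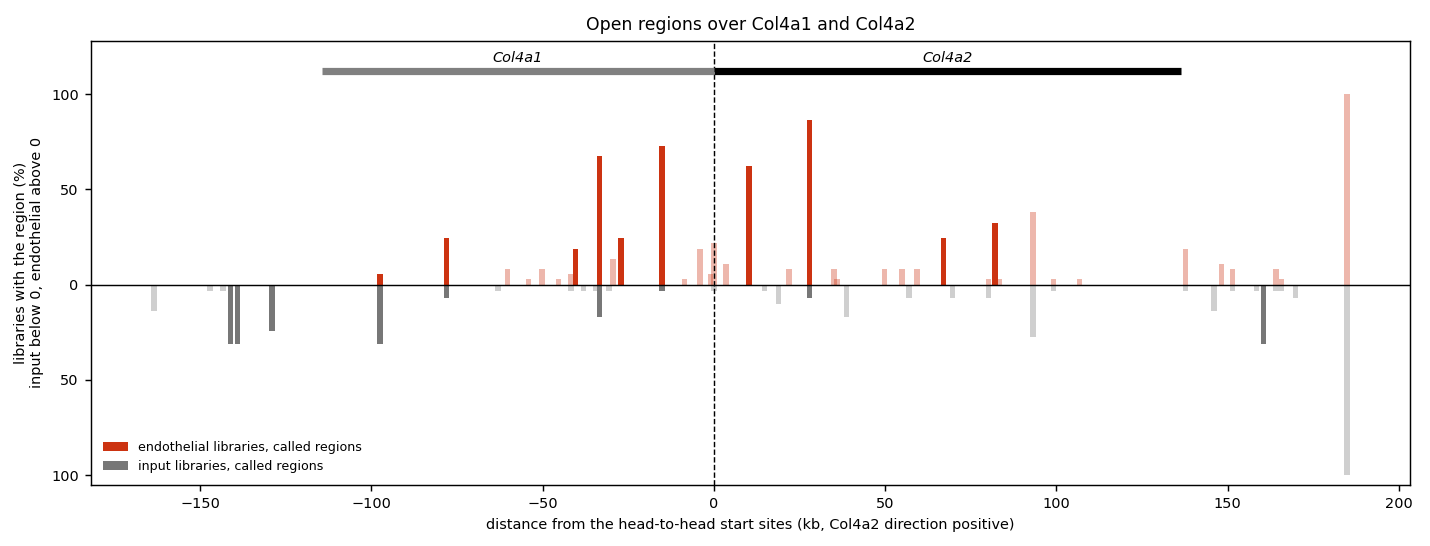
Share of libraries with each merged open region around Col4a1 (left) and Col4a2 (right), endothelial libraries as red bars above 0 and input libraries as grey bars below 0 (vertical axis, %), by distance in kb from the shared start sites (dashed line). Strong colours mark the regions called different and pale colours the rest; the tallest strong bar, 27.9 kb inside Col4a2, reaches 86.5% of endothelial and 6.90% of input libraries.

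Other members had such regions too. In Hspg2, chr4:137478140-137479003 was present in 22 endothelial and 0 input lists and chr4:137497255-137498769 in 16 and 0, the latter not passing where at least 0.5 of the region had to be covered (8.11 percentage points, exact test, adjusted p = 0.559). In Lama5, chr2:180218282-180219138 was present in 19 and 0 and chr2:180215986-180216434 in 13 and 0. In Lamc1, chr1:153223673-153225143 was present in 18 and 0, mostly in heart, trunk and E12 brain, and did not pass under the same condition (16.2 points, exact test, adjusted p = 0.563). Outside Lamc1, chr1:153353680-153355103 was present in 11 and 0 (exact test, adjusted p = 0.0351), a call lost without any 1 of 9 libraries, and with at least 0.5 covered or among peaks with −log10 q of at least 10 (21.6 points, 0.275 each). In Lama4, chr10:38980851-38981569 was present in 12 and 0. At the low-coordinate end of Lama4, chr10:38964885-38966122 was present in 11 and 1 (exact test, adjusted p = 0.0218), a call lost with every deposited peak (15.3 points, 0.346), with −log10 q of at least 10 (10.8 points, 0.395) and with at least 0.5 covered (15.5 points, 0.225). In Sparc, chr11:55405378-55406582 was present in 26 and 4. Near Nid1 the region of smallest adjusted p lay outside the gene, 101 kb from its start (chr13:13538428-13539256, 31 and 5 lists, exact test, adjusted p = 8.42e-06), and near Nid2 likewise (chr14:19733325-19734425, 10 and 0 lists). That call near Nid2 was lost without E12 trunk input replicate 1 (27.0 percentage points, exact test, adjusted p = 0.0731), P6 kidney endothelial replicate 1 (25.0 points, 0.0726) or P6 lung endothelial replicate 1 or 2 (25.0 points, 0.0783 each), and with at least 0.5 covered (27.0 points, 0.0512). Around Lamb1 0 of 14 regions passed.
Of the 7 members whose start site was used here, 2 had a called region there. The Sparc region chr11:55419369-55420365, which holds all of the promoter stretch shown above, was present in 21 and 6 lists (exact test, adjusted p = 0.0141), and the Nid1 region chr13:13437129-13438906, which likewise holds its stretch, in 22 and 6 (exact test, adjusted p = 0.0196). Counted only where at least 0.5 of the region was covered, both differences turned, to -6.43 and -3.45 percentage points (exact test, adjusted p = 1 and 0.563). Neither passed with every deposited peak (13.8 points for Sparc and 6.90 for Nid1, exact test, adjusted p = 0.156 and 0.487) or among peaks with −log10 q of at least 10 (19.9 and 29.5 points, 0.227 and 0.108), and the Nid1 call was lost without E12 brain input replicate 2 (38.0 points, 0.0601). The region at the Hspg2 start was present in 33 and 26 lists.

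Endothelium of brain and retina had fewer peaks near 4 members than endothelium of heart, kidney, liver and lung. Among the 26 P6 and adult endothelial libraries, Col4a1 had 0 to 7 peaks (median 2) in 10 libraries of brain and retina and 4 to 11 (median 7) in 16 of the other organs, a log2 difference of -1.33 ± 0.23 (SE, limma adjusted p = 1.06e-04). Col4a2 had 1 to 9 (median 3) and 5 to 15 (median 10), -1.22 ± 0.22 (1.20e-04). Hspg2 (-0.73 ± 0.21, 0.00838) and Nid2 (-0.43 ± 0.12, 0.00636) also fell. Of 18305 genes, 10.3% were lower and 27.4% higher, with a median of 0.11 over all genes. The fit had age but no organ term, so these p-values measure spread between libraries and not between organs. Col4a2 had 2.20 ± 0.84 peaks in retina (SD, n = 5) and 6.60 ± 2.61 in brain (n = 5). Liver had 13.0 ± 1.63 of them, heart 9.50 ± 1.91, kidney 9.25 ± 2.22 and lung 8.75 ± 2.63 (SD, n = 4 each). Input libraries were not in this test. Their mean Col4a1 peaks at P6 were 0 in brain and 0.667 in retina, against 1.33 to 4 in the other organs. In the adult they were 3 and 0, against 2.5 to 8. Col4a2 means in input were 1.67 and 2 against 2.5 to 3.67 at P6, and 1 and 1 against 3.5 to 6 in the adult. Whether the organ difference is particular to endothelium was not tested. Without retina libraries 2 members were lower, Col4a1 (log2 -0.89, adjusted p = 0.0202) and Col4a2 (-0.61, 0.0458; 4.70% of genes), while Nid2 (-0.18, 0.41) and Hspg2 (-0.56, 0.213) did not pass. The Nid2 call was also lost by covered length (-0.20, adjusted p = 0.166) and with a 10 kb window (-0.45, 0.0629), where Lama4 (-1.05, 0.0079) and Lama5 (-0.68, 3.25e-04) passed, so that 5 members were lower (6.86% of 16185 genes). With the peaks ranked by fold enrichment 3 were lower (6.43% of 18851 genes): Col4a2 (-0.48, adjusted p = 0.16) and Hspg2 (-0.26, 0.359) did not pass and Lama4 did (-0.73, 6.24e-04).
For Hspg2 lung and retina had the lowest values, with a mean of 2 peaks in each against 3 in brain and 5.75 to 6.25 in heart, kidney and liver. Within the kind of read file shared by retina, 2 brain and all 4 lung libraries, Hspg2 stood at 0.11 (adjusted p = 0.762), while Col4a1 (-1.72, 0.0183), Col4a2 (-1.47, 0.017), Nid1 (-1.02, 0.0275) and Nid2 (-0.44, 0.0146) were lower. The share over all genes was not taken within this kind. With the kind as a term, 4 members were lower (9.11% of 18305 genes), but not the same 4. Hspg2 was lost (0.17, limma adjusted p = 0.518) and Nid1 gained (-0.89, 0.0176). Every deposited peak in place of the top peaks left 0 members called (26.1% of 20765 genes higher, 2.58% lower). Of 22 further basement membrane genes 4 were higher in brain and retina and 5 lower, the latter with Pxdn (-1.27) and Ntn4 (-0.82). Of 17 receptors 6 were higher, among them Itgb5 (0.88), and 5 lower, among them Itga9 (-1.28). Of 15 assembly genes 4 were higher, such as Ppib (0.56), and 1 lower, and of 16 proteases and inhibitors 4 were higher and 3 lower, with Timp3 at -1.31.

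**Figure D5:**
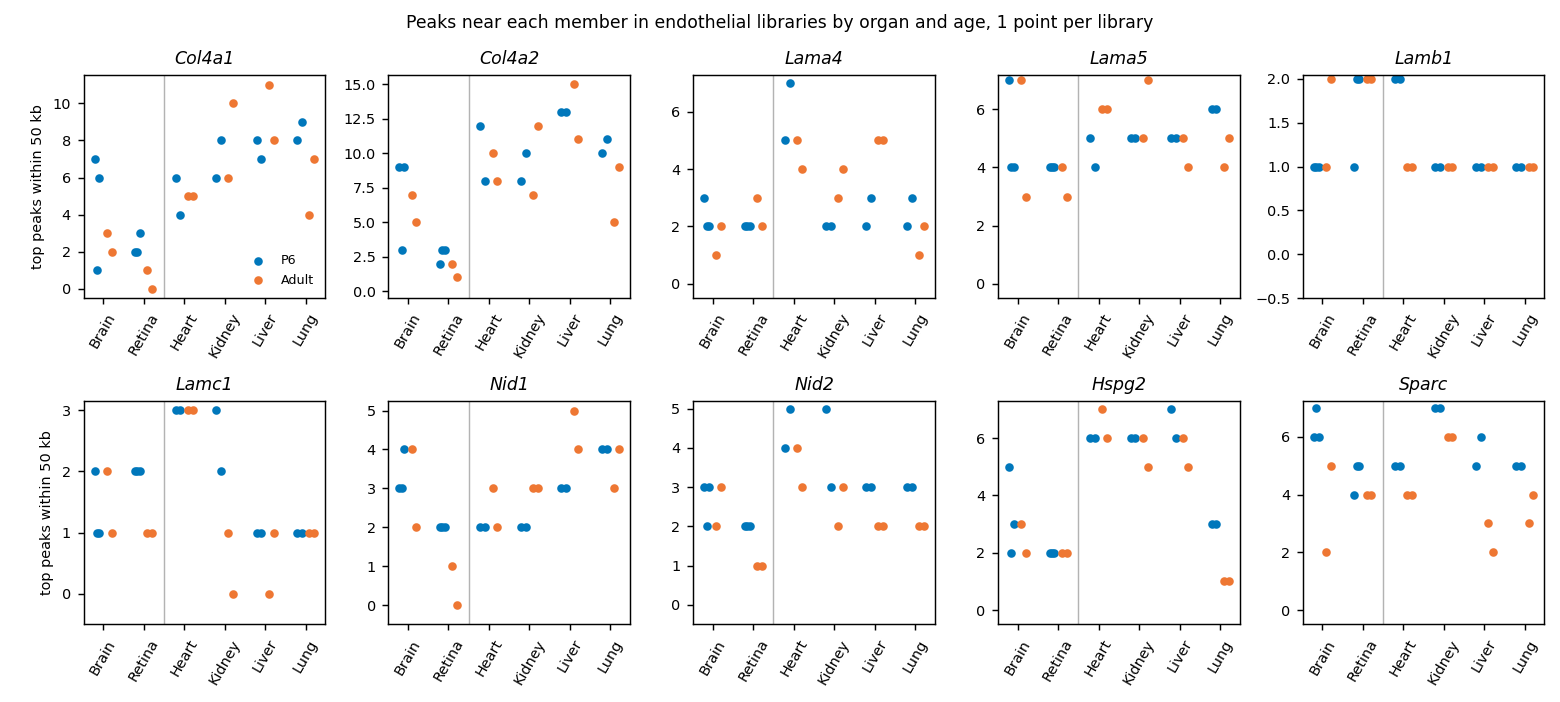
Number of top peaks within 50 kb of each member (vertical axes) in endothelial libraries of 6 organs (horizontal axes, brain and retina left of the grey line), 1 point per library, blue for P6 and orange for adult. Col4a1 and Col4a2 are low in retina (at most 3 peaks in any of its 5 libraries), and Hspg2 is low in brain, retina and lung.

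Of the members' regions, 6 were present less often in brain and retina and 0 more often (2.91% of 49437 regions lower, 2.08% higher). Libraries were permuted within age and across organs, so these p-values do not measure spread between organs either. The Lama5 region chr2:180218282-180219138 was present in 0 of 10 brain and retina lists and 15 of 16 lists of the other organs (exact test, adjusted p = 0.0011). The Hspg2 region chr4:137478140-137479003 was present in 1 and 14, and chr8:11297287-11298058 in Col4a1 in 3 and 16. In Col4a2, chr8:11394662-11395207 was present in 0 and 11 and chr8:11322612-11323525 in 2 and 14, and in Lama5 chr2:180215986-180216434 in 1 and 12. With every deposited peak that Lama5 region (-20 percentage points, exact test, adjusted p = 0.371) and chr8:11322612-11323525 (-30 points, 0.0841) did not pass. The region 27.9 kb inside Col4a2 was present in 8 and 16 and did not pass (exact test, adjusted p = 0.325). Without retina 0 of the 6 passed (0.298% of 43015 regions did), at differences of -93.8 percentage points for the Lama5 region (exact test, adjusted p = 0.0514), -67.5 for that of Hspg2 (0.137), -60 for that of Col4a1 (0.118) and -47.5 to -68.8 for the other 3. With only the 5 brain lists left on that side, few arrangements exist within age and the smallest possible p is coarse. Whether the differences rest on retina cannot be told from these lost calls. Without any 1 of the 5 brain libraries, retina kept, 3 to 4 member regions were called higher (5.20 to 5.56% of all regions). With all deposited peaks the Lama5 and Col4a1 regions did not pass (-10 percentage points each, exact test, adjusted p = 0.641), nor did that of Lama5 with at least 0.5 covered (-50 points, exact test, adjusted p = 0.122), and the Hspg2 region differed by 2.50 percentage points in the other direction (exact test, adjusted p = 1).

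By age, Nid2 and Sparc had fewer peaks nearby in adult than in P6 endothelium. Sparc had 2 to 6 peaks (median 4) in 12 adult libraries and 4 to 7 (median 5) in 14 of P6, a log2 difference of -0.46 ± 0.098 (limma, adjusted p = 0.0114). Nid2 had 1 to 4 (median 2) and 2 to 5 (median 3), -0.38 ± 0.078 (adjusted p = 0.0093). Input libraries were not in this test. Their mean Nid2 peaks at P6 and in the adult were 2 and 1 in brain, 3.33 and 2 in lung, and 2 and 1.5 in liver. They were 2.33 and 2 in kidney, 1.33 and 1 in retina, and 2 at both ages in heart. For Sparc the input means were lower in the adult in kidney alone (4.67 and 2.5). Whether input differs by age was not tested. Of 18305 genes, 2.21% were lower and 2.78% higher, and 0 members were higher. With the replicate number as a block 0 members were called (adjusted p = 0.0645 for Sparc and 0.106 for Nid2), with covered length 6 were lower (16.5% of genes), with every deposited peak all 10 (78.3% of 20765 genes), and with the ranking by fold 0 (4.23%). Lamb1, whose UMIs differed most between P8 and adult brain, had 1 to 2 peaks at both ages over all 6 organs (log2 0.00 ± 0.087). In brain alone it had 1 in each P6 list and 1 and 2 in the adult lists. A top peak lay within 1 kb of its start site in 0 of 37 endothelial libraries. These few peaks in a wide window, at other ages than P8, are not a measure of the Lamb1 start site beside its UMIs. Of 15 assembly genes 1 was higher in the adult, Loxl3 (0.28), and 1 lower, the collagen chaperone Serpinh1 (-0.53). Of 17 receptors 0 were higher and 2 lower, Itgb1, the beta chain of most matrix integrins (-0.44), and Itga2 (-0.39). Of 16 proteases and inhibitors 1 was higher, Ctsl (0.32), and 1 lower, Timp1 (-0.57), and of 22 further basement membrane genes 0 passed.
In the exact test, 0 of 49437 regions passed between adult and P6 in either direction (0% higher, 0% lower). At an unadjusted p of 0.05, 0 member regions were higher and 6 lower, beside 1069 and 1311 regions in all. Each organ had 2 adult and 2 or 3 P6 lists, so few arrangements exist and the smallest possible p is coarse. After adjustment a region could pass only together with many others of similarly small p. The 0 calls therefore cannot tell whether regions differed between these ages. From E12 to P6, in brain and heart endothelium, 0 members were called by limma (1.66% of 18079 genes higher, 1.44% lower), and 2, Lama4 (0.59) and Nid2 (0.43), were higher at an unadjusted p of 0.05, as were 1812 genes in all (10.0%).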

How the data were processed

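Members and gene lists were chosen with earlier results of these data known. Single-cell UMI counts are as deposited by the authors, and per the labels' protocols come from 10x 3′ libraries of CD31-selected cells; per the file headers, Cell Ranger made 3 of the 5 matrices. Per the file headers, MACS2 called broad peaks in each library on mm10, and the deposited lists give pileup signal, fold enrichment and −log10 p and q values for each peak. The submitters' processing notes name Bowtie2, SAMtools 1.13, Picard, DiffBind 3.2, Seurat 4.0.4 and Salmon 1.5.1. The 54 nuclear RNA-seq files were not analysed here.

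Each peak list was reduced to its 15000 peaks of greatest −log10 p. Peaks that overlapped a gene or lay within 50 kb of it were counted, and log2(count + 1) was tested with limma 3.58.1 (R 4.3.3) across all genes. Strata were organ and age for endothelial against input. They were age alone for brain and retina against the other organs, and organ alone between ages. Presence of merged regions was tested by exact permutation of libraries within strata, two-sided (Python 3.11.15). UMIs summed per library and class were tested with edgeR 4.0.16 (quasi-likelihood, library as a block), with DESeq2 1.42.0 as an alternative. P-values were Benjamini-Hochberg adjusted over all features, with a threshold of 0.05. Ages of single cells, 1 library each, were described by CPM and 2-fold changes among genes with at least 10 CPM. Named list genes were up to 4 per list and comparison with the largest change, and regions the start site and up to 2 called per member; Lamb2 and the regions more frequent in input lists were named after their values were seen. Doublets were not called. The tests were tried on simulated data. Nothing says that replicates came from separate animals, so p-values measure the spread between these libraries, which may be technical. Fits without retina and by kind of read file, class tests without mural-marker barcodes and folds without shared barcodes were added after the data were seen.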

Additional observations from a re-analysis of the deposited data

Results flagged for a closer look

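Among the E12 endothelial libraries, 6 of 17 tested sets of 4 or more had a library far from the others by Dixon's criterion in the number of top peaks near a member. Each of the 6 held 3 equal numbers and 1 that differed by 1 or 2, where the criterion is always met, so its usual rate by chance of about 1 in 20 does not apply. The library apart had 3 peaks near Lama4, 4 near Nid1 and 3 near Nid2 in heart, and 3 near Lamc1, 2 near Nid2 and 5 near Sparc in trunk.

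For 4 members, endothelial and input libraries did not overlap in organs of the same age but lay in opposite directions, a difference that was not tested. Lamc1 at P6 had a mean of 1 more peak in endothelial than in input libraries of retina and -1.5 in liver. Nid1 at P6 had 1 more in heart and -1.67 in kidney and -2 in liver. Hspg2 in the adult had 3.5 more in kidney and 4 more in liver, and -2 in lung. Sparc in the adult had 3.5 more in kidney and -2.5 in lung.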

How the results depend on the processing

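Counts moved with how peaks were ranked, and shares over all features are given in brackets. With every deposited peak, whose lists differ in length, endothelial against input had 1 member higher (3.17%) and 1 lower (47.3%), brain and retina against periphery 0 lower (2.58%), and adult against P6 10 lower (78.3%). Member regions were then 54 higher (14.1%) and 41 lower (23.2%) in endothelial lists, 10 higher (12.3%) and 15 lower (4.11%) in brain and retina, and 19 lower (6.78%) in the adult. With the top peaks by fold, 2 members were higher in endothelial libraries (14.7%) and 0 lower in the adult (4.23%), and in brain and retina the calls of Col4a2 and Hspg2 were lost and Lama4 gained (3 lower, 6.43%). Adult against P6 gave 6 lower by covered kb (16.5%), 1 with a 10 kb window (0.908%) and 0 with the replicate block (0.421%). Regions higher and lower in endothelial lists were 14 (4.07%) and 3 (1.34%) with −log10 q of at least 10, and 13 (3.46%) and 3 (1.28%) where 0.5 of the region had to be covered. Without retina, 2 members (4.70%) and 0 regions (0.298%) were lower, the regions in an exact test with few arrangements. The cause of these shifts was not tested.

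Directions turned for Lama5 in endothelial against input (-0.00392 with every peak, -0.154 by fold), Nid2 (-0.00154 with every peak) and Hspg2 (-0.103 by fold). In brain and retina they turned for Nid2 (0.107 with every peak) and Hspg2 (0.17 with the kind of read file as a term). In the adult they turned for Lama4 (-1 with every peak) and Nid2 (0.0419 by fold). Among regions they turned for the start sites of Sparc (-6.43) and Nid1 (-3.45) when 0.5 was to be covered, and for the Hspg2 region 9.77 kb from the start (2.50 with every peak), in percentage points.

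In the classes, tip-like members called were 5 with DESeq2 (2.40%), 2 without a filter (0.358%), 2 with 1 more marker (0.525%) and 7 without mural-marker barcodes (3.15%). Arterial-like calls were 3 with DESeq2 (4.62%), 2 without a filter (2.88%) and 0 without the library block (0.122%). Mural-like calls were 2 higher (7.51%) and 1 lower (9.66%) with 1 more marker, 1 lower (7.72%) with relative log expression factors, and 0 (3.08%) and 0 (2.59%) without the block. With at most 5% mitochondrial UMIs, P8 against E16.5 had 2 higher (13.6%) and 1 lower (7.90%), and adult against P8 had 0 higher (11.9%).

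Leaving out each library in turn gave 7 to 9 members higher (16.3 to 17.2% of genes) and 0 to 1 lower (16.8 to 19.3%) in endothelial libraries, 0 to 1 higher (24.2 to 28.5%) and 4 to 6 lower (8.79 to 10.5%) in brain and retina, 2 lower (1.44 to 2.42%) in the adult, and 0 from E12 to P6 (at most 2.09%). Regions were 21 to 25 higher (4.88 to 5.49%) and 4 to 7 lower (1.45 to 2.05%), 0 to 4 higher (1.41 to 5.56%) and 6 to 7 lower (2.13 to 3.78%), and 0 for adult against P6 (0%). Class calls were 0 to 6 (tip-like, 0 to 2.53%), 0 to 2 (arterial-like, 1.04 to 3.78%), and 0 to 2 higher (3.13 to 7.13%) and 0 to 2 lower (4.66 to 8.68%; mural-like).

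Deviations of same-numbered endothelial and input libraries correlated between -0.173 and 0.067 over 20 values, some of them repeats by construction. Whether replicate numbers pair the libraries cannot be told from this, because a shared animal need not show in these peak numbers. With the replicate block, Nid1 passed in endothelial against input (0.28, adjusted p = 0.0414) and Sparc did not (0.28, 0.0546), so that 7 members were higher (12.3%). The adult level of Lamb1 rests on 71 UMIs.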
